A study of Mus musculus with 19 samples.

Results

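Egr1, Egr2, Egr3, Egr4, Nr4a1, Nr4a2, Nr4a3, Arc, Ier2 and Srf were followed by gene symbol through the deposited expression table of sorted sensory neurons. Of these 10 genes, 8 were among the 12629 genes of the table, and Egr3 and Egr4 were not. The libraries were made from GFP-positive neurons of dorsal root ganglia (DRGs), the ganglia that hold the cell bodies of sensory neurons, collected 8 weeks after injection of adeno-associated virus (AAV) into the left C5 to C8 DRGs. Controls received AAV5-CMV-fGFP, which expresses a membrane-targeted GFP, and were left with intact roots (GFP-naive, n = 5) or had their dorsal roots crushed at the time of injection (GFP-crush, n = 4). The other groups received AAV5-CAG-α9-V5 together with AAV5-CMV-kindlin1-GFP, which express the integrin subunit α9 and its activator kindlin-1, again without crush (α9k1-naive, n = 6) or with it (α9k1-crush, n = 4). All 19 libraries therefore come from animals that carried an AAV, had enzymatically dissociated ganglia and were sorted on GFP. Both viral promoters are active in many cell types, GFP came from the kindlin-1 virus in the α9k1 groups, and the sorted cells are a mixture of large and small neurons. The study's methods describe male Lewis rats of 2 months, whereas the sample labels give C57BL/6 mice. The reads were aligned to the mouse genome.

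Immediate early genes are transcribed within minutes of a stimulus from factors that are already in the cell, without new protein synthesis. In neurons, calcium entry and growth factor receptors act through the Ras, Erk and Rsk kinases on Elk1 and Creb, and through actin on the myocardin-related factors Mkl1 and Mkl2, which bind Srf at CArG boxes of target promoters. The Egr proteins are zinc finger factors restrained by the corepressors Nab1 and Nab2, the Nr4a proteins are orphan nuclear receptors that can pair with Rxr, Arc encodes a cytoskeletal protein of synapses, and Ier2 encodes a small nuclear protein. In peripheral nerve, Egr2 is also the master regulator of myelin genes in Schwann cells.

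On the GRCm38 build of the mouse genome, Nr4a1 (15:101266846-101274792) and Arc (15:74669083-74672570) share a chromosome. Srf is at 17:46546839-46556162, Egr2 at 10:67535475-67542188, Nr4a2 at 2:57106830-57124003, Nr4a3 at 4:48045153-48086447 and Ier2 at 8:84661331-84662852. All 8 are protein coding, and no annotated exon of another gene shares a base with their exons. RefSeq promoter windows (GRCm38.p6, 250 bases before to 50 bases after each start) of Srf, Egr2, Egr4, Nr4a1, Nr4a2 and Nr4a3 were searched on both strands for the CArG box, for the Egr sites GCGGGGGCG and GCGTGGGCG, for the cyclic AMP element TGACGTCA and for the Nr4a site AAAGGTCA. Of 32851 windows of this length, 1.63% held a CArG box, 2.91% and 0.612% the Egr sites in that order, 1.79% the cyclic AMP element and 1.51% the Nr4a site. The Srf window held 2 CArG boxes and 1 Egr site, 4 of the 5 Egr2 windows, some of which overlap, held a CArG box, and the Nr4a1 window held 1 Egr site. None of the searched letters was found in the windows of Egr4, Nr4a2 and Nr4a3, and the cyclic AMP element, the Nr4a site and GCGTGGGCG were in no window of these genes. The windows of Srf, Egr2 and Nr4a1 are shown because these genes carry the matches and were among those with higher levels after α9k1. They are given 5′ to 3′ on the strand of the gene, and capitals mark the matches. The Srf sequence is chr17:46556176-46556412 on the minus strand, without the 13 bases that are annotated as exon. The Egr2 sequence, chr10:67537619-67537868 on the plus strand, ends at the start of one of several Egr2 transcripts and lies in an intron of longer ones. The Nr4a1 sequence, chr15:101266596-101266845 on the plus strand, likewise lies in an intron of a longer transcript. As the study's methods describe rats and the labels mice, these mouse sequences may not be those of the animals studied. A match is a description of the sequence and not evidence that a factor is bound there.
Srf: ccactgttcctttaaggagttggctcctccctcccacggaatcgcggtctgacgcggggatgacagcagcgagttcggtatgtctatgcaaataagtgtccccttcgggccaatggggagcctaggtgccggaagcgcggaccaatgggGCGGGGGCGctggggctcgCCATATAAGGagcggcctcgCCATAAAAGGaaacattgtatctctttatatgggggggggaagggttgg
Egr2: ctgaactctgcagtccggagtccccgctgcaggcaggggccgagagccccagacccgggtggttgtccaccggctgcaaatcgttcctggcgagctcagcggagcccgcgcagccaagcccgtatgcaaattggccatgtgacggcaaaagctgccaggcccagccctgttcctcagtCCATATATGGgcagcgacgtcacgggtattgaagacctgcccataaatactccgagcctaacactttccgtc
Nr4a1: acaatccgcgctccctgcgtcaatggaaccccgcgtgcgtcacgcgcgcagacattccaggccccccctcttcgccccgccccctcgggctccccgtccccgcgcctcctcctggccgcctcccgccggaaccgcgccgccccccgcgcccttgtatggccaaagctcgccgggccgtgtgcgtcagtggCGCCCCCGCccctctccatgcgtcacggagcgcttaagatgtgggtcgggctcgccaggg

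The libraries had 36.4 to 87.6 M read pairs (median 54.5 M). Alignment succeeded for 47.5% to 54.1% of reads, and 3.87% to 4.05% of the aligned bases differed from the reference. The deposited values are log2 expression after the normalization of the authors for gene length and depth, so a difference of 1 is a doubling. As levels are not given per length, levels are compared here between groups and never between genes. The expression table carries no gene names, and its rows were named in the order of the deposited gene table. The virus-encoded genes served as a check of that order and of the labels: Fermt1 (kindlin-1) was 0.62 ± 0.16 (SD) in GFP-naive and 5.58 ± 0.33 in α9k1-naive, and 0.57 ± 0.12 in GFP-crush and 7.17 ± 0.66 in α9k1-crush. Itga9 was 2.11 ± 0.25, 3.87 ± 0.92, 1.51 ± 0.44 and 6.59 ± 0.82 in the same order. All 12 neuronal markers were in the table, among them Tubb3 at 9.97 in GFP-naive, but so were all 12 markers of satellite glia and Schwann cells and 11 of 14 macrophage markers.

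Expression of α9 and kindlin-1 came with higher levels of most of these genes, and crush with lower levels. In α9k1-naive versus GFP-naive, 7 of the 8 genes rose (limma fit with 3 covariates from the alignment metrics, adjusted p under 0.1), against 11.4% of all genes called higher. In α9k1-crush versus GFP-crush, Egr1, Egr2 and Nr4a1 rose, which is 3 of 8 against 0.728% of all genes. When GFP-crush was set against GFP-naive, 6 of 8 fell, against 15.7% of all genes, and in α9k1-crush versus α9k1-naive Srf, Arc and Ier2 fell, which is 3 of 8 against 5.27%. None of the 8 was called in the opposite direction in these 4 comparisons, where 17.6%, 0.182%, 7.39% and 4.47% of all genes were. The median log2FC of the 8 genes was 1.46, 2.07, -0.94 and -0.78 in the order given, and the median of all genes was -0.08, 0.01, -0.08 and 0.00. The comparisons share groups, so they are not independent of each other.

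**Figure D1:**
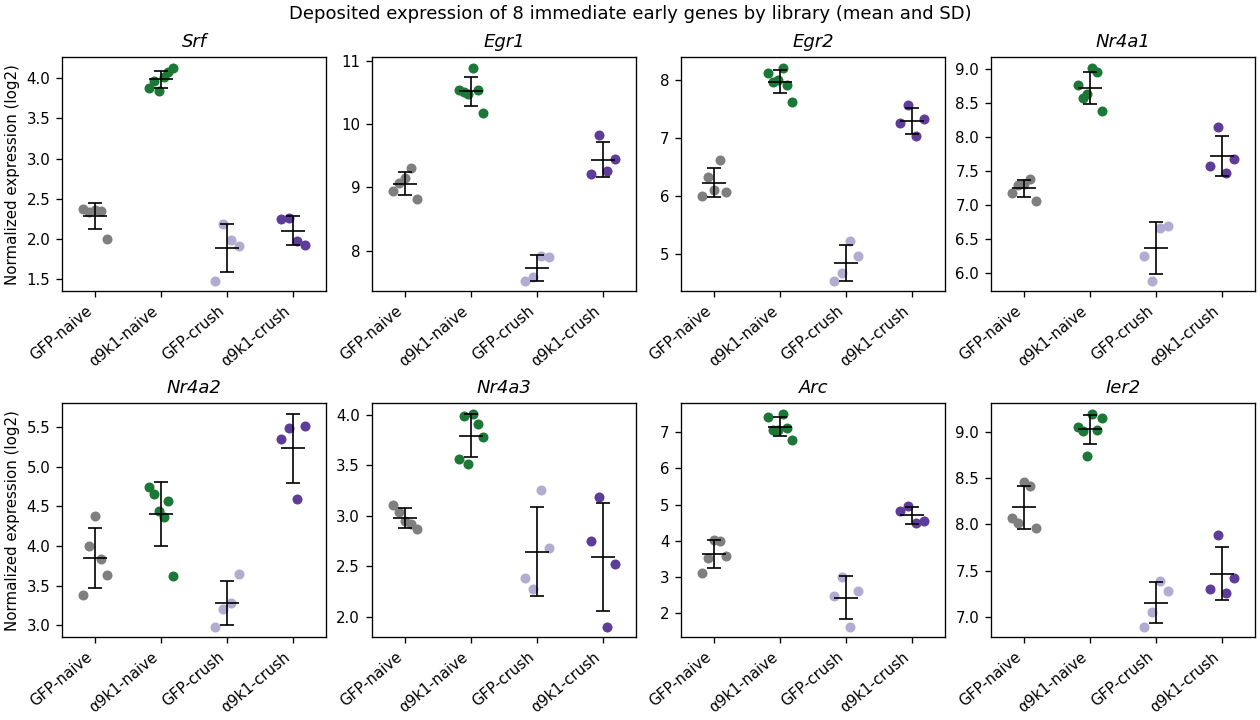
Each panel plots one gene, with normalized expression (log2, as deposited) on the vertical axis and the 4 groups on the horizontal axis. Points are libraries, and bars give the mean and SD of 4 to 6 libraries. Arc in α9k1-naive (6.79 to 7.52) stands above every other library, Srf is high in α9k1-naive alone (3.84 to 4.13), and Nr4a2 has its highest mean in α9k1-crush (5.23).

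The covariates weigh differently on the 4 comparisons. They carry 45.9%, 24.1% and 11.5% of the variance of the metrics, and 34.5%, 52.2% and 74.5% of their own variance lies between groups. For α9k1-crush versus GFP-crush the variance of a log2FC, in units of the residual variance of the gene, is 3.11 with the covariates and 0.5 without them, and for α9k1-naive versus GFP-naive 0.654 and 0.367. Without covariates, all 8 genes were called higher in α9k1-naive versus GFP-naive (16.5% of all genes) and 7 lower in GFP-crush versus GFP-naive (20.1%). After crush, 5 of 8 were then called higher with α9k1 than with GFP, but so were 29.6% of all genes. Within the α9k1 groups, 7 were called lower and 1, Nr4a2, higher with crush, against 27.1% and 28.5% of all genes. On the deposited values alone, 7 of 8 genes did not overlap between α9k1-naive and GFP-naive and were higher in the former (8.43% of all genes), and 5 of 8 likewise after crush (20% of all genes). With crush itself, 5 of 8 were lower without overlap in the GFP groups (12.2% of all genes) and 7 of 8 in the α9k1 groups (16.1%).

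**Figure D2:**
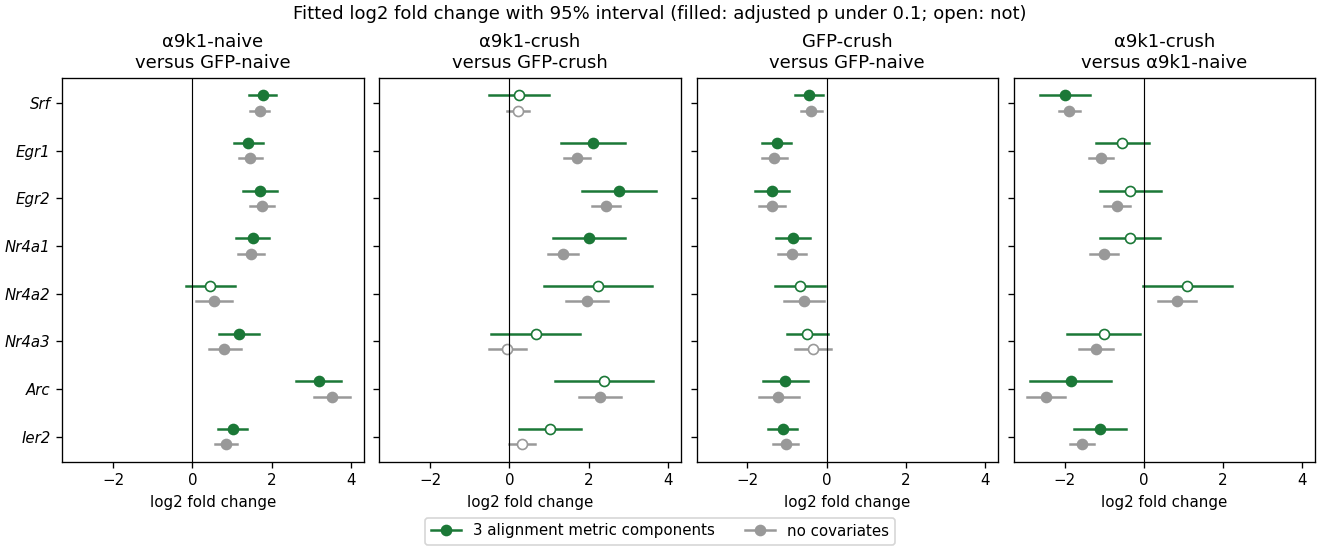
The log2FC of each gene (horizontal axis) with its 95% interval is shown for 4 comparisons, one per panel, with the 3 covariates (green) and without (grey). Filled points have an adjusted p under 0.1. The intervals with covariates are widest in the panels of α9k1-crush, where the estimate for Nr4a2 versus GFP-crush is 2.23 (0.87 to 3.60).

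Srf encodes serum response factor, which acts upstream of many immediate early genes. Along with Nr4a3, Srf was among the 25% of genes with the lowest mean, which one alternative fit removed. The Srf values in GFP-naive were 2.37, 2.34, 2.36, 2.35 and 2.0, and those in α9k1-naive ran from 3.84 over a median of 3.99 to 4.13. Replicate 5 is thus the low one of an otherwise tight control group, and the ranges stand well apart. The log2FC was 1.78 ± 0.16 (SE), with an adjusted p of 1.94e-06. After crush the values were 1.48, 2.18, 1.99 and 1.91 with GFP and 2.25, 2.26, 1.98 and 1.93 with α9k1. These groups overlap, and their difference of 0.24 (95% interval -0.52 to 1.0) was not called (adjusted p = 0.900). Within the α9k1 groups, Srf fell by 1.98 on the log2 scale with crush (SE 0.29, adjusted p = 0.00202), whereas within the GFP groups it fell by 0.45 (adjusted p = 0.0772), a call that was lost when the medians of the libraries were set equal (-0.31, adjusted p = 0.201). It was also lost in 7 of 19 fits that leave out a library, with a log2FC of -0.47 to -0.30 and an adjusted p of 0.113 to 0.203. These libraries were GFP-crush replicates 1 and 4, GFP-naive replicates 2, 3 and 4, α9k1-crush replicate 3 and α9k1-naive replicate 6.

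Egr1 rose with α9k1 in both states of the root. In GFP-naive it measured 8.95, 9.07, 9.15, 9.30 and 8.82, and in α9k1-naive 10.17 to 10.89 with a median of 10.52, a log2FC of 1.41 ± 0.17 (adjusted p = 4.15e-05). In GFP-crush it measured 7.53, 7.58, 7.92 and 7.90, and in α9k1-crush 9.21, 9.82, 9.26 and 9.45. No library of a GFP group reached the range of the α9k1 group in the same state, and the log2FC after crush was 2.12 ± 0.38 (adjusted p = 0.0141). This call was lost without GFP-crush replicate 2 (2.06, adjusted p = 0.108) and without α9k1-naive replicate 4 (1.84, adjusted p = 0.125). Within the GFP groups Egr1 fell with crush, by a log2FC of -1.26 ± 0.17 (adjusted p = 0.000424). Within the α9k1 groups the estimate was -0.55 (95% interval -1.21 to 0.12) and was not called with the covariates, although the deposited values did not overlap. Without covariates it was -1.08 and was called (adjusted p = 8.32e-06). The libraries of α9k1-crush and GFP-naive overlap in Egr1, with means of 9.44 and 9.06.

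Egr2 gave the largest log2FC of the 8 genes in α9k1-crush versus GFP-crush, 2.76 ± 0.44 (adjusted p = 0.00598). The values behind it were 4.54, 4.67, 5.23 and 4.97 in GFP-crush and 7.26, 7.58, 7.04 and 7.33 in α9k1-crush. No library of GFP-crush came near the range of α9k1-crush, and the call held in each of the 19 fits that leave out a library, with a log2FC of 2.52 to 3.11. With only the 2 groups in the fit, the calls of Egr2 (2.77, adjusted p = 0.415), Egr1 (1.93, adjusted p = 0.673) and Nr4a1 (2.60, adjusted p = 0.506) in this comparison were lost. Without crush, Egr2 measured 6.01, 6.34, 6.11, 6.62 and 6.07 in GFP-naive and 7.63 to 8.22 (median 8.00) in α9k1-naive. The difference was 1.71 ± 0.20 (adjusted p = 2.50e-05). With crush, Egr2 fell within the GFP groups (-1.39 ± 0.20, adjusted p = 0.000589), while the estimate within the α9k1 groups was -0.34 (-1.11 to 0.43) and was not called. Without covariates the latter was -0.68 and was called (adjusted p = 0.00144). The 4 groups were ordered α9k1-naive, α9k1-crush, GFP-naive and GFP-crush, and no neighbours in that order overlapped.

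The nuclear receptors differed among themselves. Nr4a1 measured 7.18, 7.30, 7.31, 7.39 and 7.06 in GFP-naive and 8.38 to 9.02 (median 8.70) in α9k1-naive, and it rose by a log2FC of 1.52 ± 0.20 (adjusted p = 6.84e-05). After crush the values were 6.25, 5.89, 6.66 and 6.69 with GFP and 7.57, 8.15, 7.48 and 7.68 with α9k1, a log2FC of 2.02 ± 0.43 (adjusted p = 0.0456). The difference of the deposited means was 1.35, and with the replicate number as a block the call was lost (2.46, adjusted p = 0.122). The groups were separate in both states, but the second call was lost when any of 4 libraries was left out, most of all without GFP-crush replicate 2 (1.58, adjusted p = 0.383); the others were GFP-naive replicates 1 (2.06, adjusted p = 0.146) and 3 (2.06, adjusted p = 0.118) and α9k1-naive replicate 4 (1.93, adjusted p = 0.189). Within the GFP groups Nr4a1 fell with crush (-0.84 ± 0.20, adjusted p = 0.0128). Within the α9k1 groups the estimate was -0.35 (95% interval -1.11 to 0.41, adjusted p = 0.6255) and was not called with the covariates, although the deposited values did not overlap, and without covariates it was -1.0 (adjusted p = 8.58e-05). The order of groups in Nr4a1 was that of Egr2.

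Nr4a2 had the lowest estimate of the 8 genes in α9k1-naive versus GFP-naive and was the one not called there (0.45, 95% interval -0.17 to 1.08, adjusted p = 0.293). Its values were 3.38, 4.0, 4.38, 3.84 and 3.63 in GFP-naive and 4.74, 4.65, 4.44, 4.37, 4.57 and 3.62 in α9k1-naive. Of the α9k1-naive libraries, replicates 4 and 6 lay within the control range, which GFP-naive replicate 3 extends upwards, and without replicate 6 the log2FC was 1.28 (adjusted p = 0.0101). After crush Nr4a2 measured 2.98, 3.20, 3.28 and 3.65 with GFP and 5.35, 5.48, 4.59 and 5.51 with α9k1. These ranges are separate (exact permutation p = 0.0286, the smallest that 4 against 4 allows, and 0.0700 adjusted over all genes). In this comparison 40.8% of all genes passed that test at an adjusted p under 0.1. The fit with covariates gave 2.23 ± 0.64 with an adjusted p of 0.216. That became 3.05 (adjusted p = 0.00853) without α9k1-naive replicate 6, which belongs to neither group and enters through the covariates and the shared estimate of the spread. In contrast to the other 7 genes, the estimate of Nr4a2 for α9k1-crush versus α9k1-naive was above 0, at 1.10 (95% interval -0.03 to 2.23, adjusted p = 0.245), and without α9k1-crush replicate 3 it was 1.43 (adjusted p = 0.0833). For GFP-crush versus GFP-naive it was -0.68 (-1.31 to -0.05, adjusted p = 0.134), and -1.04 (adjusted p = 0.00981) without α9k1-naive replicate 6 or -0.87 (adjusted p = 0.0851) without GFP-crush replicate 4.

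Nr4a3 was higher in α9k1-naive, at 3.51 to 4.01 (median 3.85), than in GFP-naive, at 3.11, 3.04, 2.95, 2.92 and 2.87. The log2FC was 1.18 ± 0.24 (adjusted p = 0.00286), and 0.81 on the deposited values. After crush it measured 2.38, 2.27, 3.25 and 2.68 with GFP and 2.75, 3.18, 1.90 and 2.52 with α9k1. The ranges overlap over most of their span, with the lowest library in α9k1-crush and the highest in GFP-crush, and the estimate was 0.66 with the covariates (-0.46 to 1.78, adjusted p = 0.760) and -0.06 without them. The 3 lowest group means, of GFP-naive, GFP-crush and α9k1-crush, were 2.98, 2.64 and 2.59, with overlap between neighbours. The estimates for crush were -0.49 (95% interval -1.01 to 0.03, adjusted p = 0.184) within the GFP groups and -1.01 (-1.94 to -0.09, adjusted p = 0.193) within the α9k1 groups, and neither was called. The deposited values of the α9k1 groups did not overlap (-1.21, exact permutation p of 0.017 adjusted over all genes), but 51.3% of all genes passed that test there. Both estimates were called without α9k1-naive replicate 6, at -0.72 (adjusted p = 0.0470) within the GFP groups and -1.27 (adjusted p = 0.0513) within the α9k1 groups.

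Arc, which acts at synapses on the internalization of glutamate receptors, gave the largest change of the 8 genes without crush. Values of 3.09, 3.52, 4.01, 4.0 and 3.56 in GFP-naive stood against 6.79 to 7.52 (median 7.09) in α9k1-naive, a log2FC of 3.19 ± 0.27 or 9.10-fold (adjusted p = 7.72e-07). After crush, 2.47, 3.0, 1.61 and 2.60 with GFP stood against 4.81, 4.96, 4.49 and 4.53 with α9k1. Every α9k1 library was again higher, by a log2FC of 2.38 ± 0.58, but the adjusted p of 0.104 was just above the threshold. It was below it without GFP-crush replicate 2 (3.31, adjusted p = 0.0255), GFP-crush replicate 3 (2.33, adjusted p = 0.0546) or α9k1-crush replicate 4 (2.64, adjusted p = 0.0853). The exact permutation p of the deposited values was 0.0286 (0.0700 adjusted over all genes), and 40.8% of all genes passed that test here. Arc fell with crush in both settings, by a log2FC of -1.04 ± 0.27 with GFP (adjusted p = 0.0198) and -1.84 ± 0.48 with α9k1 (adjusted p = 0.0363). With only the 2 groups in the fit both calls were lost (-0.85, adjusted p = 0.249, and -2.29, adjusted p = 0.123), and the second also with the replicate number as a block (-1.59, adjusted p = 0.306). No neighbouring groups overlapped in Arc.

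Ier2 measured 8.07, 8.01, 8.46, 8.42 and 7.96 in GFP-naive and 8.74 to 9.20 (median 9.04) in α9k1-naive, and it rose by a log2FC of 1.02 ± 0.17 (adjusted p = 0.000543). Its values after crush were 6.89, 7.05, 7.39 and 7.28 with GFP and 7.30, 7.89, 7.26 and 7.42 with α9k1. Those ranges overlap, and the estimate of 1.03 (0.25 to 1.81) was not called (adjusted p = 0.386). The difference of the deposited means was 0.32. Ier2 fell with crush by -1.11 ± 0.17 within the GFP groups (adjusted p = 0.000947) and -1.10 ± 0.30 within the α9k1 groups (adjusted p = 0.0478). The latter call was lost without α9k1-naive replicate 1 (-0.97, adjusted p = 0.123), 2 (-1.06, adjusted p = 0.1003) or 4 (-1.25, adjusted p = 0.102). It was also lost with only the 2 groups in the fit (-1.55, adjusted p = 0.166) and with the replicate number as a block (-1.25, adjusted p = 0.172).

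The interaction asks whether crush alters the response to α9k1, and is the log2FC of α9k1 over GFP with crush less the one without. Of the 8 genes, Srf alone was called, with -1.53 ± 0.34 (adjusted p = 0.0425), against 0.847% of all genes called negative. This call rests on a gene among the 25% with the lowest mean. In other words, the difference of Srf between α9k1 and GFP was 1.78 without crush and 0.24 after it. The call was lost without GFP-crush replicate 2 (-1.14, adjusted p = 0.185), GFP-naive replicate 3 (-1.60, adjusted p = 0.112) or α9k1-crush replicate 4 (-1.30, adjusted p = 0.126). It was also lost with the replicate number as a block (-1.48, adjusted p = 0.302). Nr4a2 had the largest estimate on the positive side, 1.78 (95% interval 0.49 to 3.07, adjusted p = 0.190), where 1.35% of all genes were called. It was called without α9k1-crush replicate 3 (1.94, adjusted p = 0.0946) or without α9k1-naive replicate 6 (1.78, adjusted p = 0.0559). Egr2 followed with 1.05 (0.17 to 1.93), Egr1 with 0.71 (-0.05 to 1.47), Nr4a1 with 0.50 (-0.37 to 1.36) and Ier2 with 0.01 (-0.73 to 0.75), and Nr4a3 and Arc were at -0.52 (-1.58 to 0.54) and -0.81 (-1.98 to 0.37). Without GFP-crush replicate 2 the estimates of Arc and Nr4a1 were close to 0 (-0.04 and 0.12). None of these was called, and the intervals leave room for differences of more than 1 unit in 6 of them. Without covariates 4 genes were called negative (Srf, Arc, Nr4a3 and Ier2; 16.1% of all genes) and 2 positive (Egr2 and Nr4a2; 23.3% of all genes).

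The 8 profiles over the 19 libraries, each scaled to mean 0 and SD 1, were compared by their root mean square (RMS) difference, as a description. Egr1 and Nr4a1 were the most alike of the 8 (0.17), followed by Egr1 and Egr2 (0.22) and Egr2 and Nr4a1 (0.26). Nr4a2 was 0.71 to 1.27 from the rest and farthest from Nr4a3. Among 12627 other genes, those nearest to Egr1 were Fos (0.13), Nr4a1 (0.17) and Junb (0.19). The nearest to Egr2 were Ccnl1 (0.14), Zfp36 (0.18) and Adamts1 (0.19), and to Nr4a1 Gm43337 (0.13), Egr1 (0.17) and Fos (0.19). For Arc they were Insig1, Sphk1 and Angptl4 (0.19 each), for Ier2 Cebpd (0.17), Zfp36l1 and Fbln2 (0.21 each), and for Srf Mt2 (0.21), Gm8385 and Acot1 (0.23 each). Nr4a3 and Nr4a2 had no neighbour as close, with Ezr (0.34), Traf4 and Rgcc (0.38 each) for the former and Tk2, Cttn (0.41 each) and 2310035C23Rik (0.44) for the latter. The group means of Srf and Mt2, which encodes a metallothionein, show the shape they share, with 2.28, 3.98, 1.89 and 2.11 for Srf and 4.69, 7.16, 3.71 and 4.63 for Mt2 in GFP-naive, α9k1-naive, GFP-crush and then α9k1-crush.

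**Figure D3:**
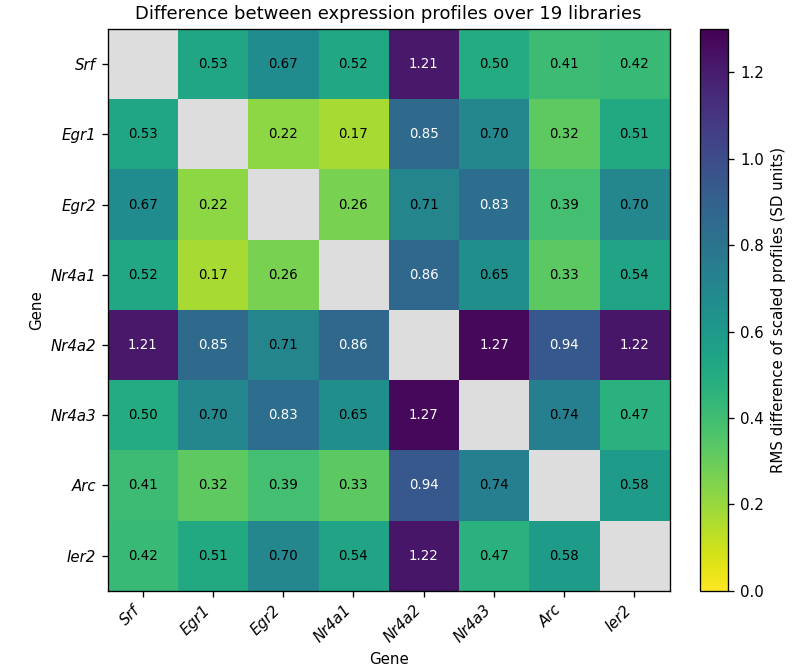
The colour and number in each cell give the RMS difference (in SD units) between the scaled expression profiles of a pair of genes over 19 libraries, with the 8 genes on both axes. Egr1, Egr2, Nr4a1 and Arc form a block of low values (0.17 to 0.39), and Nr4a2 is 0.71 or more from each of the others.

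Related genes were taken from lists, and their counts are read against all genes. These lists were likewise chosen with earlier results of these data known, so the counts describe and do not test them. With the covariates, the shares of all genes called are those given for the 8 genes, and an unadjusted p under 0.05 was reached by 34.9% of all genes for α9k1 against GFP without crush, 9.11% for α9k1 against GFP after crush, 30.9% for crush within the GFP groups, 21.5% for crush within the α9k1 groups and 14% in the interaction. Without covariates, 16.5% of all genes were called higher and 29.5% lower in the first of these comparisons, 29.6% and 28.3% in the second, 11% and 20.1% in the third, and 28.5% and 27.1% in the fourth. In the interaction, 23.3% were then called positive and 16.1% negative.

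Many other immediate early genes shifted as well. Of 48 on the list, 44 were measured. In α9k1-naive versus GFP-naive, 34 rose and 4 fell, with a median log2FC of 1.18. The AP-1 subunit Fosl1 rose most (4.41), and Dusp6, a phosphatase of Erk, fell most (-1.10). Among the best known members of the list, Fos rose by 1.59, Junb by 1.53, Jun by 1.44 and the injury-induced factor Atf3 by 2.99. In α9k1-crush versus GFP-crush, 19 of 44 rose and none fell, with a median of 1.42, from 1.31 for Jun to 3.42 for Fosl2, and Fos rose by 2.32, Junb by 2.13 and Atf3 by 2.16. In GFP-crush versus GFP-naive, 35 fell, among them Btg2 (-1.88), an antiproliferative factor, Fos (-1.38), Junb (-1.20), Jun (-0.76) and Atf3 (-0.59), and the Erk phosphatase Dusp2 alone rose (1.77); the median was -0.82. In α9k1-crush versus α9k1-naive, 14 fell, from -0.75 for Ier3 to -2.0 for the small Maf factor Maff, and none rose, with a median of -0.61. The interaction was called for 1 of 44, Errfi1 (1.82), an inhibitor of the EGF receptor. Without covariates, 34 were called higher and 4 lower for α9k1 against GFP without crush, 36 and 2 for the same after crush, 1 and 36 for crush within the GFP groups, and 1 and 35 for crush within the α9k1 groups, and the interaction was called positive for 6 and negative for 11.

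**Figure D4:**
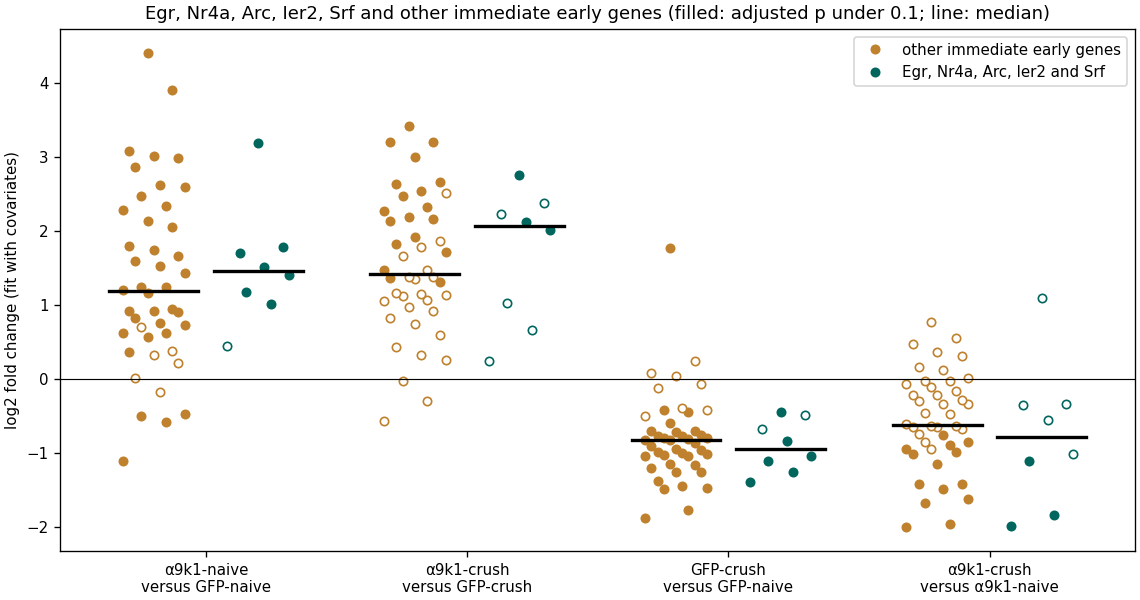
The log2FC (vertical axis, fit with covariates) of 44 other immediate early genes (brown) and of the 8 genes described here (teal) is plotted for 4 comparisons along the horizontal axis. Filled points have an adjusted p under 0.1 and lines mark medians, which for the teal and brown points are 1.46 and 1.18, 2.07 and 1.42, -0.94 and -0.82, and -0.78 and -0.61.

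Among the factors that act with Srf, Egr and Nr4a proteins, the calls with the covariates were few and were more without them. Of 13 cofactors 11 were measured, and 1 fell in α9k1-naive versus GFP-naive, the Srf cofactor Fhl2 (-0.92). In GFP-crush versus GFP-naive 3 fell, from -0.43 for Rxrb over -1.03 for Nab2 to -1.07 for Rxra. With the covariates none was called by limma in the remaining comparisons or in the interaction, where 1, 1 and 3 of 11 had an unadjusted p under 0.05. Without covariates 3 were called lower for α9k1 against GFP without crush, 3 higher and 1 lower for the same after crush, 7 lower for crush within the GFP groups, and 1 higher and 3 lower for crush within the α9k1 groups, with 2 positive in the interaction. In α9k1-naive versus GFP-naive, Elk1 was at 0.10, Mkl1 at 0.01, Nab1 at 0.00 and Nab2 at 0.44 (log2FC, none called), and Mkl2 was not in the table. Of 18 genes for upstream kinases and Creb, 16 were measured. In α9k1-naive versus GFP-naive 3 of the 16 fell, where 17.6% of all genes did, most of all the Rsk gene Rps6ka1 (-0.84), and none rose. In α9k1-crush versus α9k1-naive Rps6ka1 rose (0.91) and the Erk gene Mapk3 fell (-0.67), and no gene of this list was called in the other 2 comparisons, where 1 and 4 of 16 had an unadjusted p under 0.05, against 9.11% and 30.9% of all genes. Without covariates, 4 were called higher and 3 lower for α9k1 against GFP without crush, 8 and 2 for the same after crush, 1 and 3 for crush within the GFP groups, and 5 and 1 for crush within the α9k1 groups. The interaction was called for none of them with the covariates (2 with an unadjusted p under 0.05) and positive for 6 without.

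Genes known to respond to these factors divided. Of 16 activity response genes 13 were measured, of which 6 rose and 1 fell in α9k1-naive versus GFP-naive, from 1.61 for Rasd1 to -0.76 for neuritin (Nrn1), which promotes neurite growth. In α9k1-crush versus GFP-crush none was called by limma with the covariates, and 1 had an unadjusted p under 0.05. With crush Rasd1 fell within the GFP groups (-0.96), the only call of the list there, and 2 fell within the α9k1 groups, Rasd1 (-1.67) and the neuropeptide gene Adcyap1 (-2.03). The interaction of Adcyap1 was -2.38 (adjusted p = 0.0993). Without covariates 7 were called higher and 2 lower for α9k1 against GFP without crush, 4 and 2 for the same after crush, 0 and 1 for crush within the GFP groups, and 2 and 10 for crush within the α9k1 groups, with 1 positive and 1 negative in the interaction. Of 23 actin and adhesion targets of Srf 21 were measured, and in α9k1-naive versus GFP-naive 6 rose and 4 fell, from 2.36 for Ankrd1 to -1.40 for Acta2, which encodes smooth muscle actin. With the covariates none was called by limma between the crush groups, where 2 of 21 had an unadjusted p under 0.05, against 9.11% of all genes. In GFP-crush versus GFP-naive, 1 rose, the focal adhesion gene Zyx (0.71), and 5 fell, down to Acta2 (-1.65). In α9k1-crush versus α9k1-naive 2 fell, the calponin gene Cnn2 (-1.55) and Ankrd1 (-3.50), and Cnn2 had an interaction of -1.68 (adjusted p = 0.0185). The median of these 21 genes in α9k1-naive versus GFP-naive was 0.04. Without covariates 7 were called higher and 9 lower for α9k1 against GFP without crush, 5 and 9 for the same after crush, 2 and 7 for crush within the GFP groups, and 4 and 12 for crush within the α9k1 groups, with 5 positive and 7 negative in the interaction.

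The myelin genes that Egr2 drives in Schwann cells did not share the rise of Egr2 in α9k1-naive. All 9 were measured. In α9k1-naive versus GFP-naive, 7 fell and none rose, from -0.79 for Cnp to -2.33 for periaxin (Prx), with a median of -1.24, while Egr2 rose by 1.71. In α9k1-crush versus GFP-crush none was called by limma with the covariates or had an unadjusted p under 0.05 (median 0.17), with Egr2 at 2.76. In GFP-crush versus GFP-naive 2 rose, Mbp (0.79) and Pmp2 (0.69), and in α9k1-crush versus α9k1-naive 6 rose, from 1.03 for Pmp22 to 2.76 for Prx. The interaction was called for 3 of 9, all positive, from 1.65 for Mal to 2.54 for Prx. Without covariates 7 were called lower for α9k1 against GFP without crush, 4 lower for the same after crush, 2 higher and 1 lower for crush within the GFP groups, and 8 higher and 1 lower for crush within the α9k1 groups, with 7 positive in the interaction.

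Markers of other cells moved with the groups as well. In bulk RNA, fewer cells of a type and less RNA per cell cannot be told apart. The linear levels of the 11 measured macrophage markers, of 14 listed, summed to 232 to 328 in GFP-naive, 587 to 866 in α9k1-naive, 742 to 1106 in GFP-crush and 624 to 1145 in α9k1-crush. For α9k1 against GFP without crush, 8 of 11 macrophage markers rose and none fell, 2 of 12 glial markers rose and 6 fell, and all 6 fibroblast and all 4 endothelial markers fell. For crush within the GFP groups, 8 macrophage markers and 7 of 12 neuronal markers rose, 1 neuronal marker fell, 1 glial marker rose and 3 fell, 5 fibroblast markers fell, and no endothelial marker was called or had an unadjusted p under 0.05. For crush within the α9k1 groups, 2 macrophage, 4 neuronal, 2 endothelial and 4 fibroblast markers rose and none of these lists had a call in the other direction, while 5 glial markers rose and 2 fell. In α9k1-crush versus GFP-crush, no marker of any of the 5 lists was called by limma with the covariates, and 0 to 2 of each list had an unadjusted p under 0.05. Without covariates, where 29.6% of all genes were called higher and 28.3% lower, 5 of 12 neuronal markers rose and 1 fell there, 1 glial marker rose and 7 fell, 3 macrophage markers rose and 1 fell, 3 endothelial markers fell, and of the fibroblast markers 1 rose and 1 fell. The 12 markers of satellite glia and Schwann cells summed to 11890 to 14840, 5911 to 7619, 12550 to 18220 and 7143 to 12840 in the same order of groups. The 12 neuronal markers summed to 9973 to 12810, 6236 to 7751, 14760 to 21040 and 15000 to 21230. The lower sum in α9k1-naive rests mainly on the neurofilament genes Nefh (-2.32), Nefm (-2.42) and Nefl (-2.10). Of the 12 neuronal markers 4 fell, 1 rose and 7 were not called there against GFP-naive, with a median log2FC of -0.25. Fibroblast markers (6 of 8 measured) summed to 756 to 941, 108 to 305, 310 to 401 and 249 to 349, and endothelial markers (4 of 8 measured) to 85.5 to 125, 15.3 to 57.9, 80.3 to 149 and 18.2 to 65.6. The macrophage markers Cx3cr1, Itgam and Mrc1 and the endothelial markers Pecam1, Cdh5, Kdr and Vwf were not in the table. The part of these shifts in the levels of Egr, Nr4a and the other immediate early genes was not tested.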

How the data were processed

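RNA-seq was analysed from 19 libraries, which were assigned to groups by their labels. By the study's methods, the authors prepared libraries with the SMART-Seq v4 kit, which does not keep strand, aligned reads to mm10 with STAR and quantified genes with Salmon. The deposited expression values are log2 values, which the authors made by removing genes with few counts and normalizing with cqn for length and depth. That table has no gene names, and its rows were named in the order of the deposited gene table. Under that order Fermt1 ranked 1 and Itga9 23 of 12629 genes by the difference between α9k1 and GFP means. The deposited gene table also holds the fold changes (log2), p-values and mean levels of the authors' own comparisons, which were not used. The deposited Picard metrics hold counts of reads and bases, fractions, percentages and ratios of coverage, as the authors computed them per library. Their 48 columns were scaled, and the first 3 principal components were the covariates.

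One fit with limma 3.58.1 (R 4.3.3) took the 4 group means and 3 covariates (12 residual degrees of freedom), with empirical Bayes across 12629 genes and Benjamini-Hochberg adjustment over all of them. Genes were called at an adjusted p under 0.1, the threshold of the study. The study's model also has batch, which the labels do not give, and it was left out. The fit was tested on simulated data. Deposited values were also compared by a 2-sided exact permutation test of the difference in means, adjusted over all genes. The 10 genes and all lists were chosen with earlier results of these data known, and a gene listed under an older and a newer symbol was counted once. Named genes are the 10 genes, the 3 nearest profiles of each, the called genes with the largest and smallest log2FC of each list, and Elk1, Mkl1, Mkl2, Nab1, Nab2, Fos, Jun, Junb, Atf3, Fermt1 and Itga9. Tubb3 and the absent markers were named after their values were seen. A gene that this rule names is not reported here. Summed marker levels are sums of 2 to the power of the deposited value. As the depth behind single normalized values cannot be recovered, no counting error is given, and the SD between libraries includes it. Biological replicates are stated by the study's methods but animals are not identified by the labels. The alternatives were no covariates, only the 2 groups compared, removal of the 25% of genes with the lowest mean, quantile normalization, medians set equal, the replicate number as a block, library weights and each library left out. Tables and figures were made with Python 3.11.15, pandas 2.3.3, numpy 2.4.6, scipy 1.17.1 and matplotlib 3.10.9.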

Additional observations from a re-analysis of the deposited data

Results flagged for a closer look

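Of 32 sets of values (8 genes in 4 groups) tested for a library that stands apart by Dixon's test, 2 were marked, and chance marks about 1 in 20. Nr4a2 in α9k1-naive replicate 6 was 3.62, with a gap to the next library of 0.672 of the range of the group. Srf in GFP-naive replicate 5 was 2.0, with a gap of 0.936 of the range. The interaction of Srf was called, at -1.53 on the log2 scale (adjusted p = 0.0425 in the limma fit over all 12629 genes). The call was lost with the replicate number as a block (-1.48, adjusted p = 0.302) and in 3 of 19 fits without one library.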

How the results depend on the processing

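The higher levels of Egr1, Egr2, Nr4a1, Nr4a3, Arc, Ier2 and Srf in α9k1-naive kept their direction and call under every alternative that was run, except that the filter on low values left Srf and Nr4a3 untested, and 7 or 8 genes were called there in each fit without one library. The comparisons with α9k1-crush depended on the fit. In α9k1-crush versus GFP-crush, 5 genes were called higher without covariates, 5 with library weights and 0 with only the 2 groups compared (1 to 4 without one library). In α9k1-crush versus α9k1-naive, 7 were called lower and 1 higher without covariates, 1 lower with only the 2 groups compared, and 2 to 4 lower and 0 to 1 higher without one library. In GFP-crush versus GFP-naive 5 to 7 were called lower without one library and 4 with only the 2 groups compared, where Arc (-0.85, adjusted p = 0.249) and Srf (-0.48, adjusted p = 0.283) lost their calls. In the interaction, 4 were negative and 2 positive without covariates, 1 positive with library weights, and 0 negative with the filter on low values, which left 6 genes (0 to 1 negative and 0 to 1 positive without one library). The single call was lost there because Srf was no longer tested.

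Replicate numbers did not pair the libraries. The deviations of 25 pairs with the same number correlated at -0.269 to 0.149, and 3 of 18 libraries were most like one with their own number. With the number as a replicate block and the covariates kept, 1 gene was called lower in α9k1-crush versus α9k1-naive and 0 negative in the interaction. Calls were lost there for Nr4a1 (α9k1 against GFP after crush), for Arc and Ier2 (crush within the α9k1 groups) and for Srf (crush within the GFP groups, and the interaction). They were gained for Nr4a2 with α9k1 without crush (1.41), with α9k1 after crush (3.09) and with crush within the GFP groups (-1.11), and for Nr4a3 in the last of these (-0.83).

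Directions turned for Nr4a1 in the interaction without covariates (-0.12) and for Nr4a3 in α9k1-crush versus GFP-crush without covariates (-0.06). For Srf in α9k1-crush versus GFP-crush the sign turned with only the 2 groups compared (-1.13). The interaction of Ier2 was -0.53 without covariates, -0.02 after quantile normalization, -0.12 with medians set equal, -0.04 with the replicate block and -0.21 to 0.15 without one library. None of these estimates was called in the fit with covariates. The cause of these differences was not tested.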
